A study of Mus musculus with 4 samples.

Results

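Small leucine-rich proteoglycans (SLRPs) and versican were described by single-cell RNA sequencing in brown adipose tissue (BAT) of mice, in cells of its stromal vascular fraction (SVF). The set held 9 of the 32285 genes in the count tables, chosen by symbol: the decorin-type SLRPs Dcn (decorin), Bgn (biglycan) and Aspn (asporin), the lumican-type SLRPs Lum (lumican), Fmod (fibromodulin) and Prelp (prolargin), Ogn (osteoglycin), Podn (podocan) and the large hyaluronan-binding proteoglycan Vcan (versican). SLRPs are small secreted proteins with leucine-rich repeats, most of which carry glycosaminoglycan chains, that bind collagen fibrils and set their diameter and spacing. Decorin and biglycan also bind TGFβ and other growth factors, and versican forms large, hydrated aggregates with hyaluronan that are taken apart by ADAMTS proteases. In adipose tissue the main source of SLRPs is the fibroblast and adipocyte progenitor compartment.

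The study set lean BAT beside BAT of diabetic and of diet-induced obesity, with 1 library in each of 4 groups. The labels give C57BL6/J as the strain of every library. The methods give it for the wild type and name the diabetic mice B6.BKS(D)-Leprdb/J. Any difference in strain background between these lines cannot be told apart from genotype. The groups were wild-type (WT) mice of 10 weeks, db/db mice of 8 weeks (db/db 8w) and of 16 weeks (db/db 16w), and wild-type mice on a high-fat diet (HFD) that are labelled as 10 weeks old. By the methods the diet began at 10 weeks of age and lasted 10 weeks, which goes against that label and would make these mice older than the WT mice. db/db mice carry a mutation in the leptin receptor gene in all tissues, so that overeating, obesity and hyperglycaemia come together and no single one of them is isolated. Each library held SVF pooled from 3 mice, age differs between the groups, and no library was repeated, so no test of a condition was possible and a difference between libraries cannot be told apart from one between mice or preparations.

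The kept cells numbered 5944 for WT, 11648 for db/db 8w, 5833 for db/db 16w and 5462 for HFD, with 26558173 to 53420105 unique molecular identifiers (UMIs) per library. Series of 4 values run in the order WT, db/db 8w, db/db 16w, then HFD, which is called library order, and series of 3 leave out WT. Stromal cells, gated on Col1a1, Col1a2, Col3a1 and Pdgfra, numbered 4273 (71.9% of kept cells), 6944 (59.6%), 1195 (20.5%) and 1675 (30.7%). They also held Pdgfrb, a stromal gene that was not used in the gate, at 111 to 284 CPM (UMIs scaled to 1000000 UMIs of the cells summed), against 0.129 to 4.63 CPM in macrophages. Stromal cells had a median of 6899, 2985, 2870 and 5164 UMIs and a median mitochondrial share of 3.59%, 6.06%, 0.416% and 9.60%. The db/db 16w library stood apart: the study used male mice, but this library held Xist at 207 CPM against at most 0.688 CPM elsewhere, and 4 Y-linked genes at 17.7 CPM against 164 to 188 CPM. Mature brown adipocytes float away during SVF preparation, and Ucp1 was at 0.333 to 1.95 CPM in the WT and db/db libraries and at 58.5 CPM in HFD. Kept cell barcodes shared by 2 libraries numbered 7 to 25, at most 0.429% of the smaller library.

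The genes lie in clusters that reflect the duplication of an ancestral SLRP locus. In GRCm38, Dcn (chr10:97479609-97518143) and Lum (chr10:97565128-97572703) are neighbours on the plus strand. Aspn (chr13:49544443-49567565) and Ogn (chr13:49608046-49624501) flank Omd on the plus strand of chromosome 13, which also carries Vcan (chr13:89655312-89742509, minus strand) far from them. Prelp (chr1:133910304-133921414, minus strand) and Fmod (chr1:134037254-134048277, plus strand) lie on chromosome 1. Bgn is X-linked (chrX:73483602-73495933, plus strand) and Podn is on chromosome 4 (chr4:108014791-108096445, minus strand).

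Promoters were found for 7 of the 9 genes in RefSeq on GRCm38.p6. Those of Bgn, Fmod and Ogn are shown because Bgn and Fmod had the largest increases over WT in the HFD library and Ogn the largest decrease in db/db 16w. Each is the 250 bases before the RefSeq start, 5′ to 3′ on the gene's strand, in lower case, with matches to any of 4 promoter motifs on either strand in capitals. They lie at chrX:73483351-73483600, chr1:134037004-134037253 and chr13:49607765-49608014, and none overlapped an annotated exon.
Bgn: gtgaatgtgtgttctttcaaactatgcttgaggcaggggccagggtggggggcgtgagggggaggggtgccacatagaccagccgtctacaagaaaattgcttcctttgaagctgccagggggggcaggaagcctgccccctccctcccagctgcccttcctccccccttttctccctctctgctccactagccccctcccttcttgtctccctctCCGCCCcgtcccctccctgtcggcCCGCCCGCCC
Fmod: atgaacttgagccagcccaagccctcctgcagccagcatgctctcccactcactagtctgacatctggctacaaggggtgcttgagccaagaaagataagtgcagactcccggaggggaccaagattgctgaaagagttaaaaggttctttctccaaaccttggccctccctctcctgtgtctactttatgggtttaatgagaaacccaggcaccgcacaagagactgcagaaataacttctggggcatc
Ogn: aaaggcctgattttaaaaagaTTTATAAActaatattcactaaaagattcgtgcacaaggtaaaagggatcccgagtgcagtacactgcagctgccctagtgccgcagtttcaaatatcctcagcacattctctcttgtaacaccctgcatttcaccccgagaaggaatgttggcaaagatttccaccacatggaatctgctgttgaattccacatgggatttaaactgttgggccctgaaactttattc
The Bgn window held 3 GC boxes, of which the nearest pair to the start overlapped, and had a GC content of 64.4%. The Ogn window held overlapping matches to the TATA box on both strands 222 to 229 bases before the start, with a GC content of 42.0%. None of the 4 motifs had a match in the Fmod window, at 51.2% GC. Among 32851 mouse promoters of the same length, 32.7% held the GC box searched for (GGGCGG), 12.4% the TATA box (TATAAA), 33.8% the CCAAT box and 6.75% the AP-1 motif (TGANTCA), and the median GC content was 52.4%. The matches are a description of the windows and not of factor binding.

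In every library, gated stromal cells held most UMIs of each gene. The stromal share of all UMIs of a gene was 96.1% to 100% for WT, 92.3% to 97.5% for db/db 8w, 91.7% to 98.5% for db/db 16w and 82.8% to 94.6% for HFD, where Aspn (82.8%) and Prelp (83.3%) had the most UMIs outside the gate. The levels given next are per UMI of the stromal cells themselves, so that they do not move with the number of stromal cells in a library.

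Bgn, which encodes the collagen-binding and TGFβ-binding proteoglycan biglycan, showed the widest difference from WT among the abundant members. Its level in stromal cells was 291 CPM (exact 95% Poisson interval 285 to 297), 1322 CPM (1308 to 1335), 2624 CPM (2578 to 2671) and 2364 CPM (2333 to 2395) in library order. All 3 libraries of obese mice lay above WT and no intervals overlapped. The ratio to WT was 4.55-fold (4.45 to 4.65) for db/db 8w, 9.02-fold (8.79 to 9.27) for db/db 16w and 8.13-fold (7.94 to 8.32) for HFD. These and all later intervals cover counting error only, not the spread between mice. After each cell was thinned to 1000 UMIs, 14.3% of WT stromal cells (exact Clopper-Pearson interval 13.3 to 15.4) had a Bgn UMI, against 52.3% (51.0 to 53.7), 85.4% (83.2 to 87.5) and 78.9% (76.9 to 80.8) in the libraries of obese mice. Before thinning the 4 shares were 32.9%, 67.8%, 94.6% and 92.6%, and the thinning left out 97, 1457, 111 and 2 cells with fewer UMIs. The Bgn signal was thus concentrated in few WT cells: the top 10% of stromal cells held 75.6% of its UMIs, against 27.5% in HFD. As Bgn is X-linked, other X-linked genes were counted beside it, and their median log2 ratio to WT was 0.02, 0.00 and 0.17. For db/db 16w, the sex-linked difference of the library and its genotype and age cannot be told apart. Beside Bgn, the summed level of the 8 mural cell markers in stromal cells was 15.5, 76.3, 373 and 280 CPM in library order, with all 8 detected in each, and the part of mural RNA in the Bgn level was not tested.

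Lum, a keratan sulfate SLRP that regulates fibril assembly, was also higher in each library of obese mice. Stromal cells held 463 CPM (456 to 471), 848 CPM (838 to 859), 1008 CPM (980 to 1038) and 1936 CPM (1908 to 1964) in library order. No neighbours in that order overlapped, and the ratio to WT was 1.83-fold (1.79 to 1.87), 2.18-fold (2.11 to 2.25) and 4.18-fold (4.09 to 4.27). In thinned cells the share with a Lum UMI followed the same order, at 31.9%, 47.1%, 63.7% and 77.4%.

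Fmod, a lumican relative that binds collagen and steers its cross-linking, was close to undetected in WT. Only 2 UMIs were counted over 4273 WT stromal cells (0.0579 CPM, 0.00702 to 0.209), against 137 UMIs for db/db 8w (4.67 CPM, 3.92 to 5.53), 62 UMIs for db/db 16w (13.3 CPM, 10.2 to 17.1) and 586 UMIs for HFD (60.7 CPM, 55.9 to 65.8). The intervals of the 4 libraries did not overlap. Against the 2 UMIs of WT the ratio was 80.7-fold (21.9 to 673), 230-fold (61.2 to 1945) and 1047-fold (289 to 8669). The HFD signal was spread over 301 of 1675 stromal cells (18.0%), with at most 14 UMIs in 1 cell, and the top 10% of cells held 77.3% of it. After thinning, 99 of 1673 HFD cells (5.92%, 4.84 to 7.16) had an Fmod UMI and 0 of 4176 WT cells did, which allows a share of up to 0.0718% of cells with an Fmod UMI at this depth and sets no limit on cells that express the gene. Before thinning, 2 WT cells had an Fmod UMI. HFD macrophages, which should lack the gene, had 2 of 1378 thinned cells with a UMI (0.145%), at a median depth of 5842 UMIs before thinning against 5164 in stromal cells.

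Dcn and Ogn, by contrast, were at lower levels than WT in the libraries of obese mice. Dcn, the best known SLRP and a TGFβ binder, was at 12125 CPM (12088 to 12162), 8533 CPM (8499 to 8566), 6653 CPM (6579 to 6728) and 8607 CPM (8549 to 8666) in library order, which put WT 1.42-fold, 1.82-fold and 1.41-fold above the others. The intervals of db/db 8w and HFD overlapped, and no others did. This direction did not hold in a narrower band of depth: in stromal cells of 2000 to 6000 UMIs the log2 ratio to WT was 0.06, 0.00 and 0.25, against -0.51, -0.87 and -0.49 in all stromal cells. The gene was close to universal, with a UMI in 95.3% to 98.9% of thinned stromal cells. Ogn, a class III SLRP also called mimecan, was at 896 CPM (886 to 906), 502 CPM (494 to 511), 317 CPM (301 to 333) and 799 CPM (781 to 817). The 8-week db/db level was 1.78-fold and the 16-week level 2.83-fold (2.69 to 2.98) lower than that of WT, and within Col15a1 Col4a1 cells alone 1.18-fold and 1.46-fold. The values within these cells depend on gates that exclude each other. Under overlapping gates Ogn in these cells was at 903, 467, 320 and 758 CPM in library order, below WT throughout. In HFD the log2 ratio of Ogn was -0.17, and it was 0.17 as a mean over cells and 0.61 in cells of 2000 to 6000 UMIs.

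The remaining members differed from WT by less than 2-fold in each library. Prelp, which anchors basement membranes to connective tissue, was at 239 CPM (234 to 244), 218 CPM (213 to 224), 139 CPM (129 to 150) and 319 CPM (308 to 331) in library order, so WT lay inside the range of the others. Aspn, a decorin relative without glycosaminoglycan chains, was at 315 CPM (309 to 321), 578 CPM (569 to 587), 515 CPM (495 to 536) and 479 CPM (465 to 493), higher in all 3 than in WT. Podn, a leucine-rich repeat protein that binds collagen, was at 99.6 CPM (96.3 to 103), 131 CPM (127 to 135), 198 CPM (185 to 211) and 163 CPM (155 to 171). All 3 values again lay above WT. Vcan was at 157 CPM (153 to 161), 264 CPM (258 to 270), 126 CPM (116 to 137) and 223 CPM (214 to 233), so that the db/db libraries lay on either side of WT. In these 4 genes, too, the intervals of neighbouring levels did not overlap.

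**Figure D1:**
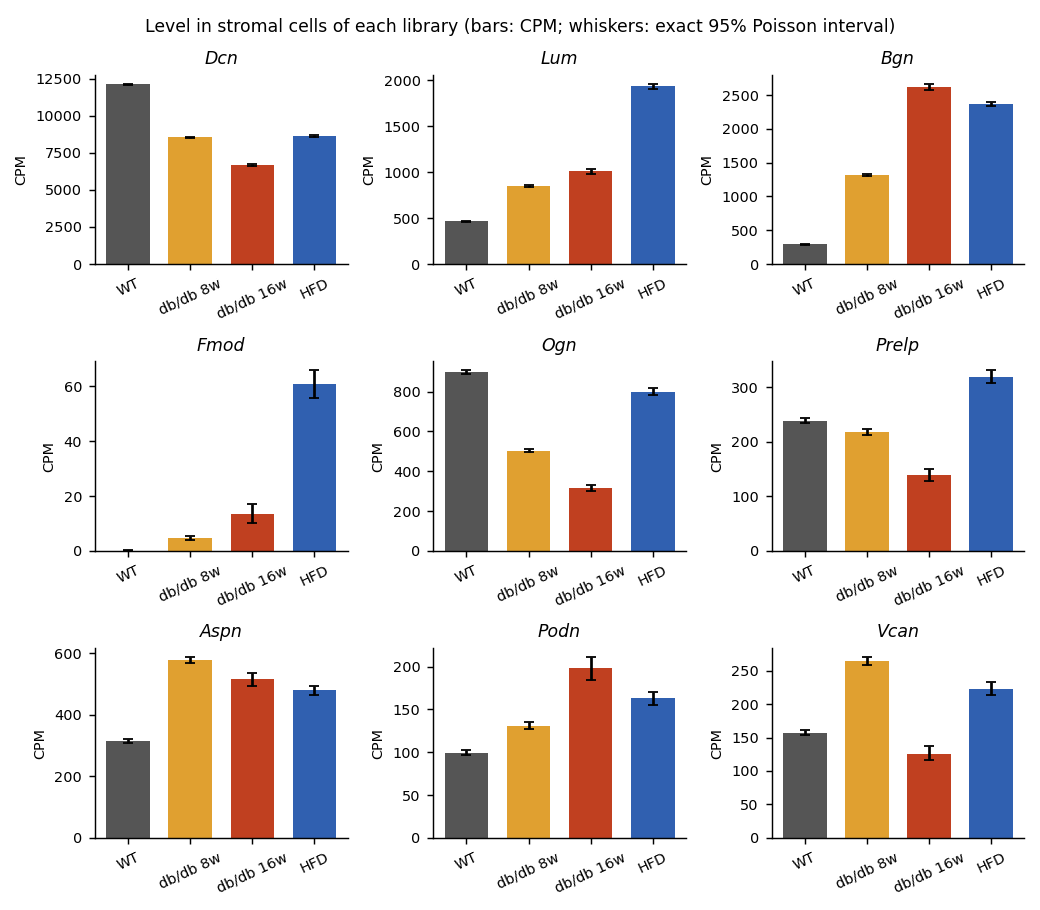
Level of each gene in the gated stromal cells of each library, in CPM on a linear axis that starts at 0 and differs between panels (bars), with exact 95% Poisson intervals (whiskers, counting error only) and 1 library of 3 pooled mice per bar. Bgn is lowest in WT (291 CPM) and highest in db/db 16w (2624 CPM), Lum is highest in HFD (1936 CPM), and Dcn is highest in WT (12125 CPM).

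Set against all genes, members past 2-fold in either direction were counted among those with at least 20 CPM in either library of a comparison. All 3 comparisons with WT share the WT library. For db/db 8w, 8 of the 9 members could be read (Fmod was under the floor) and 1 of them, Bgn, was past 2-fold, where 7.37% of 6320 genes were. The members' median log2 ratio was 0.57 against 0.03 for all genes. For db/db 16w, again with 8 members, Bgn and Lum were higher and Ogn lower, 3 members where 28.5% of 6614 genes were past 2-fold, with a median of 0.20 against 0.01. For HFD all 9 members could be read, Fmod through its HFD level alone, and Bgn, Lum and Fmod were higher where 18.7% of 6677 genes were past 2-fold, with a median of 0.60 against 0.10. Close to the threshold, Lum (log2 1.12) lay just inside and Podn (log2 0.99) just outside for db/db 16w.

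**Figure D2:**
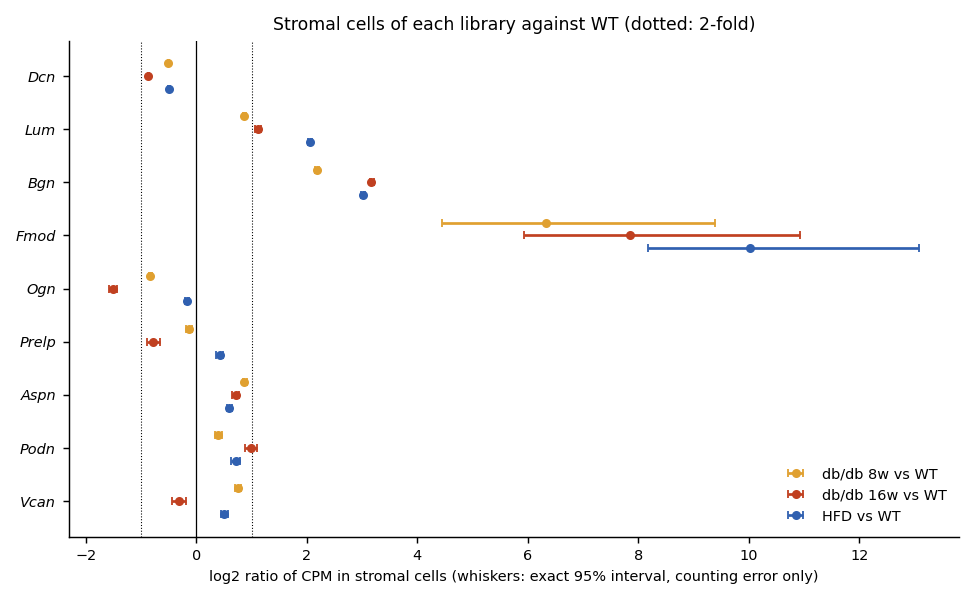
Log2 ratio of the stromal level of each gene to WT, with 1 coloured point for each library of obese mice, with exact 95% intervals that cover counting error only; dotted lines mark 2-fold. Bgn lies at 2.18, 3.17 and 3.02, and Fmod, with 2 UMIs in WT, has the widest intervals.

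Between the ages of db/db mice, 8 of the 9 members could be read. Of these 8, 1 (Vcan) was past 2-fold, where 15.2% of 6438 genes were in either direction. The Vcan level in db/db 16w was 2.09-fold lower (1.92 to 2.28) than in db/db 8w, and 1.70-fold lower (1.55 to 1.87) within Col15a1 Col4a1 cells. Fmod was 2.86-fold higher (2.08 to 3.88) in the older library, but it was under the floor and was not counted. Bgn was 1.99-fold higher (1.95 to 2.03), just outside the threshold, and Podn 1.51-fold higher (1.41 to 1.63). Prelp was 1.57-fold and Ogn 1.59-fold lower. The older library is the one whose sex-linked transcripts go against the study, and age and that difference cannot be told apart.

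Stromal cells were then split by further markers into subsets, since the libraries differed in them. Cells with UMIs of Pi16, Dpp4, Sema3c and related genes, which mark the interstitial, less committed progenitors, made up 48.3% (46.8 to 49.8) of WT stromal cells, and 19.5% (18.6 to 20.5), 1.92% (1.22 to 2.87, only 23 cells) and 9.97% (8.58 to 11.5) of the others. Cells with Col15a1, Col4a1, Col4a2 and Pparg, which mark progenitors closer to adipocytes and vessels, made up 9.50% (8.64 to 10.4), 32.9% (31.8 to 34.0), 81.2% (78.8 to 83.4) and 69.4% (67.1 to 71.6) in library order. The first kind was thus the largest named subset in WT, and the second made up most of the stroma of db/db 16w and HFD. A subset marked by Cilp, Eln and Apod made up 1.09% to 3.92%, and 15.2% to 39.8% of stromal cells met no subset. The gate needs 3 marker UMIs, so its shares move with depth: cells in no subset had a median of 1406 UMIs in db/db 8w, against 6092.5 in WT. The shares also rest on gates that exclude each other. When a cell could count in several subsets, 3736, 2919, 64 and 503 cells met the Pi16 Dpp4 gate in library order. The Col15a1 Col4a1 gate was met by 1909, 3878, 1063 and 1501, of 4273, 6944, 1195 and 1675 stromal cells. Many WT cells thus met both gates.

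The members sorted into different subsets. Bgn, Podn, Lum and, where it was detected, Fmod were higher in Col15a1 Col4a1 cells than in Pi16 Dpp4 cells. Within WT the ratio between these subsets was 13.5-fold (12.6 to 14.4) for Bgn, 4.35-fold (3.96 to 4.77) for Podn and 2.77-fold (2.65 to 2.89) for Lum. Within HFD it was 18.1-fold (15 to 22) for Bgn, 8.96-fold (5.41 to 16.1) for Podn and 5.01-fold (4.49 to 5.62) for Lum. Of the 586 stromal Fmod UMIs in HFD, 460 lay in Col15a1 Col4a1 cells and 2 in Pi16 Dpp4 cells, which numbered 1162 and 167. In db/db 16w, with 23 Pi16 Dpp4 cells, the Bgn ratio was 2.03-fold (1.61 to 2.60) and the Lum ratio 1.11-fold with an interval that spans 1 (0.838 to 1.51). The size of these ratios rests on gates that exclude each other. When a cell could count in several subsets, the Bgn ratio was 1.93-fold, 1.42-fold, 1.45-fold and 1.41-fold in library order, the Podn ratio 1.57-fold, 1.65-fold, 1.37-fold and 1.72-fold, and Lum was 1.34-fold, 1.39-fold and 1.39-fold higher in Col15a1 Col4a1 cells for WT, the younger db/db library and HFD but 1.44-fold lower for db/db 16w.

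Aspn, Ogn and Vcan leaned the other way. Aspn was higher in Pi16 Dpp4 cells by 2.80-fold, 2.04-fold, 2.22-fold and 1.70-fold in library order. Vcan was higher there by 1.39-fold, 1.75-fold, 3.65-fold and 2.38-fold. Ogn was higher by 2.32-fold for WT, 1.85-fold for db/db 8w and 1.86-fold for HFD, while for db/db 16w only 11 Ogn UMIs were counted in Pi16 Dpp4 cells and the interval of the ratio spanned 1. With overlapping gates Aspn was higher in Pi16 Dpp4 cells by 1.10-fold to 1.65-fold, Vcan by 1.10-fold to 1.73-fold and Ogn by 1.04-fold to 1.31-fold. Dcn and Prelp differed less between the subsets. Dcn was 1.06-fold to 1.10-fold higher in Col15a1 Col4a1 cells of 3 libraries and 1.74-fold higher in the 23 Pi16 Dpp4 cells of db/db 16w, and the ratio of Prelp was 0.963 to 1.28. In Cilp Eln Apod cells Bgn was at 2119, 3025, 2739 and 3042 CPM in library order (76, 272, 13 and 28 cells), which was 2.38-fold (2.24 to 2.54), 1.96-fold (1.90 to 2.03), 1.01-fold (0.832 to 1.20) and 1.17-fold (1.04 to 1.30) the level of Col15a1 Col4a1 cells, so that these subsets could not be separated in db/db 16w.

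**Figure D3:**
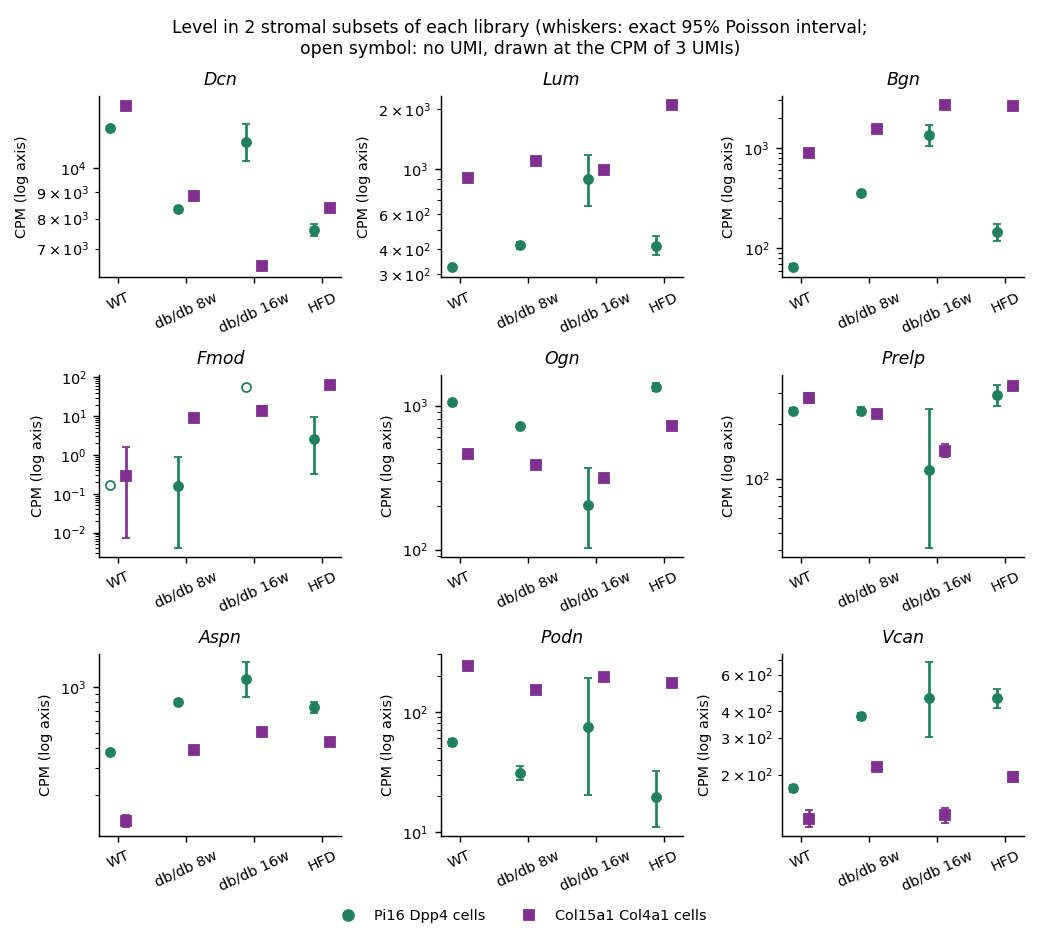
Level of each gene in Pi16 Dpp4 cells (green circles) and Col15a1 Col4a1 cells (purple squares) of each library, in CPM on a log axis, with exact 95% Poisson intervals; open symbols had no UMI and are drawn at the CPM of 3 UMIs. Purple lies above green for Bgn, Podn and Lum in each library, and below it for Aspn and Vcan.

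Within Col15a1 Col4a1 cells alone, with gates that exclude each other, several differences from WT narrowed and others widened. Bgn was at 889, 1541, 2723 and 2611 CPM in library order, a ratio to WT of 1.73-fold, 3.06-fold and 2.94-fold in place of 4.55-fold, 9.02-fold and 8.13-fold over all stromal cells. Lum was at 904, 1097, 995 and 2090 CPM, so that HFD (2.31-fold) stayed past 2-fold and db/db 16w (1.10-fold) did not. Aspn went the other way, with 134 CPM in WT and 393, 511 and 437 CPM in the others, or 2.93-fold, 3.81-fold and 3.26-fold. The summed mural markers of these cells were at 38.0, 131, 408 and 308 CPM (6, 7, 8 and 8 of 8 detected), and the part of mural RNA in the Aspn and Bgn levels was not tested. Ogn was at 459, 389, 315 and 724 CPM, so that it was 1.18-fold and 1.46-fold lower than WT in the db/db libraries, with no value past 2-fold, and 1.58-fold higher in HFD. Podn, higher than WT over all stromal cells, was lower within this subset by these gates, at 242, 153, 196 and 175 CPM. Fmod was at 0.281 CPM (1 UMI), 9.13, 13.9 and 65.5 CPM, and against that 1 UMI the HFD ratio was 233-fold (41.6 to 9224). Past 2-fold in either direction was 1 of 8 members read for db/db 8w (Aspn, where 7.80% of genes were). For db/db 16w it was 3 of 8 (Bgn and Aspn higher and Dcn lower, where 27.1% of genes were). For HFD it was 4 of 9 (Lum, Bgn, Fmod and Aspn, where 17.8% of genes were), with Fmod read through its HFD level alone. Between the db/db ages it was 0 of 8 (11.5% of genes). All genes had a median log2 ratio to WT of 0.14, 0.11 and 0.23 in this subset, against which Bgn was at 0.79, 1.61 and 1.55, Aspn at 1.55, 1.93 and 1.70, and Podn at -0.66, -0.31 and -0.47. These values depend on the gates. When a cell could count in several subsets, Podn in Col15a1 Col4a1 cells was at 133, 163, 196 and 172 CPM, above WT throughout. Ogn was then at 903, 467, 320 and 758 CPM, below WT throughout, HFD included. Aspn was at 304, 541, 514 and 460 CPM, with no ratio to WT past 2-fold. Bgn was at 456, 1646, 2674 and 2528 CPM and Lum at 571, 1004, 1006 and 2052 CPM.

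Within Pi16 Dpp4 cells Bgn was at 65.9 CPM (62.2 to 69.8), 358 CPM (344 to 373), 1341 CPM (1049 to 1689, 23 cells) and 145 CPM (119 to 174) in library order, so that it also lay above WT in this subset. Vcan was at 172, 380, 466 and 463 CPM and Aspn at 376, 802, 1136 and 744 CPM, higher than WT in each library. The summed mural markers of these cells were at 2.82, 6.54, 112 and 111 CPM (6, 6, 3 and 8 of 8 detected), and their part was not tested. The Vcan level of db/db 16w was below WT over all stromal cells and above WT in these cells. Podn in Pi16 Dpp4 cells was at 55.7, 31.0, 74.5 (4 UMIs) and 19.5 CPM. All these levels come from gates that exclude each other, and the Vcan level of db/db 16w rests on 25 UMIs. Under overlapping gates Podn was at 84.8, 98.8, 143 and 100 CPM in library order, above WT throughout. Bgn was then at 236, 1161, 1839 and 1799 CPM. Vcan and Aspn stayed above WT in each library, with Vcan of db/db 16w nearer to WT.

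When each subset's level was weighted by the subset's share in WT, Bgn remained 3.32-fold, 6.01-fold and 4.43-fold above WT, and Lum 1.41-fold, 2.16-fold and 2.62-fold. Vcan, weighted so, was 2.03-fold, 1.66-fold and 2.33-fold above WT, against 1.68-fold above, 1.24-fold below and 1.42-fold above without weights. Podn was 1.14-fold below WT for db/db 8w, 2.06-fold above for db/db 16w and 1.02-fold above for HFD. The weights are the WT shares, but several of the weighted levels come from few cells. For db/db 16w, the Pi16 Dpp4 level rests on 23 cells. A subset marked by Meg3 and Nova1, with a WT share of 8.92%, held 6 cells there and 5 cells for HFD. Another, marked by Has1 and Ptx3 (WT share 1.73%), was 1 cell in each of these libraries. Of the db/db 16w Podn UMIs, 11 lay in the 6 Meg3 Nova1 cells and 4 in the 23 Pi16 Dpp4 cells.

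**Figure D4:**
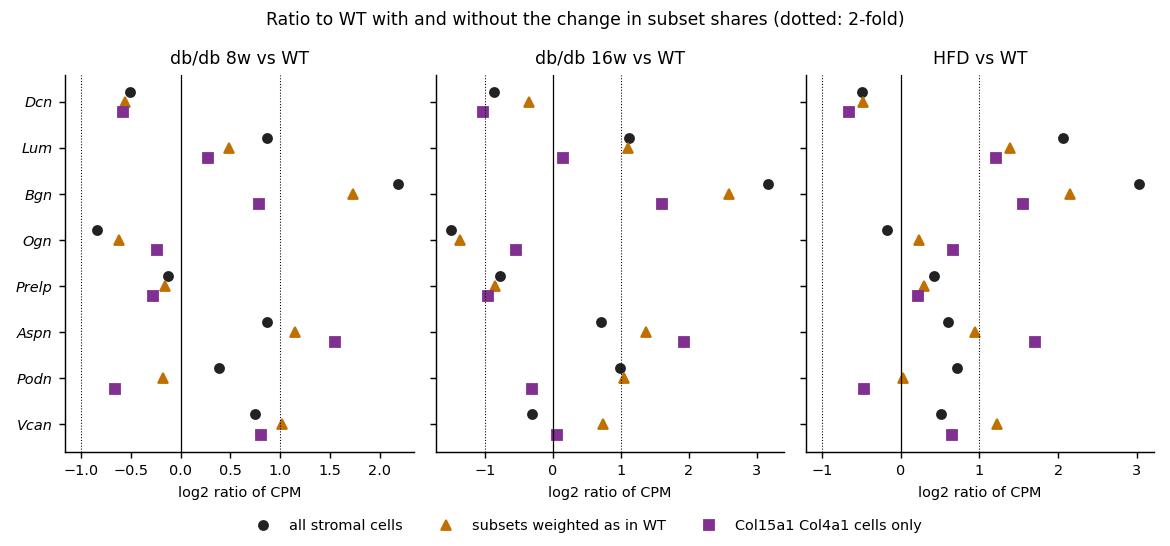
Log2 ratio to WT of 8 genes (Fmod is left out because of its 2 WT UMIs) over all stromal cells (circles), with subset levels weighted by the WT subset shares (triangles) and in Col15a1 Col4a1 cells alone (squares); dotted lines mark 2-fold. For Bgn in HFD the 3 values are 3.02, 2.15 and 1.55, and for Aspn 0.60, 0.95 and 1.70. The subsets were gated to exclude each other.

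Outside the stroma, Vcan was also held by monocytes. Monocyte-gated cells held it at 145 CPM (88.5 to 224, 17 cells), 378 CPM (302 to 467, 47 cells), 88.4 CPM (35.5 to 182, 34 cells) and 193 CPM (140 to 259, 64 cells) in library order, against 4.54, 10.1, 1.29 and 2.17 CPM in macrophages. In each library the monocyte interval lay above the macrophage level. It overlapped the stromal interval in all but db/db 8w, where monocytes were higher. Stromal cells of WT held 5415 Vcan beside 418596 Dcn UMIs, whereas WT monocytes held 20 beside 21 and db/db 16w monocytes 7 beside 0. The summed stromal markers of monocytes were at 283, 320, 37.9 and 398 CPM (3, 4, 2 and 4 of 4 detected). Their part in the Vcan level was not tested. After thinning, 11 of 47 monocytes in db/db 8w (23.4%, 12.3 to 38.0) had a Vcan UMI against 22 of 2414 macrophages (0.911%, 0.572 to 1.38), at class medians of 4437 and 5210 UMIs before thinning.

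Aspn and Bgn were also held by mural cells, the pericytes and smooth muscle of vessels. These could be gated in db/db 16w (34 cells) and HFD (31 cells); WT had none and db/db 8w 1. In db/db 16w mural cells Aspn was at 897 CPM (665 to 1182) and Bgn at 932 CPM (696 to 1223), on 50 and 52 UMIs beside 0 Dcn UMIs. In HFD mural cells the levels were 526 CPM (408 to 666) and 379 CPM (280 to 501), beside 14 Dcn UMIs. Mural cells of db/db 16w and HFD also held summed stromal markers at 1255 and 896 CPM (4 of 4 detected). Their summed endothelial markers were at 1201 and 1499 CPM (6 of 6 detected). The part of stromal and endothelial RNA in these mural levels was not tested. In db/db 16w the Aspn level of mural cells lay above that of stromal cells (515 CPM) with no overlap of the intervals, and in HFD (479 CPM) the intervals overlapped. The other lineages with enough cells held less: endothelial cells of db/db 16w and HFD had Bgn at 13.1 and 133 CPM, on 22 and 726 UMIs beside 21 and 622 Dcn UMIs, and Prelp at 14.3 CPM (9.18 to 21.3) and 50.7 CPM (44.9 to 57.0). Their summed mural markers were at 216 and 405 CPM, and the part of mural RNA in these endothelial levels was not tested.

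Dcn in cells that should lack it was read as stromal RNA in other lineages. Whether it came from free RNA or from doublets was not tested. Macrophages held 278, 86.9, 2.90 and 86.4 CPM in library order, and T and NK cells 246, 103, 0 and 168 CPM. The 4 stromal gate markers summed to 556, 366, 21 and 254 CPM in macrophages. The db/db 16w library thus had the least, and it also had the fewest stromal Dcn UMIs (30898, against 418596 in WT). Lum, Ogn, Prelp, Podn and Fmod were at 23.1 CPM or less in macrophages of each library.

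**Figure D5:**
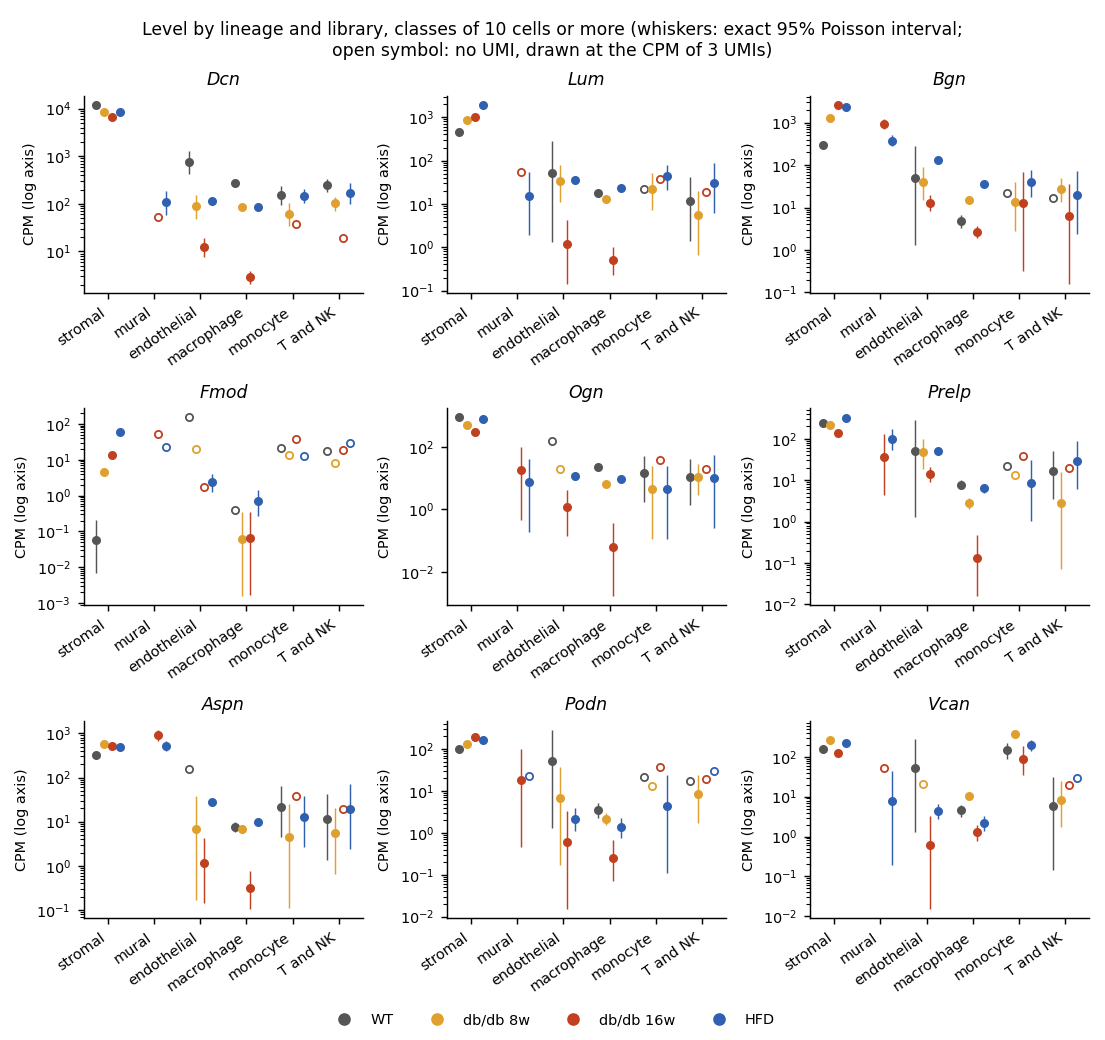
Level of each gene by lineage (x axis) and library (colour), in CPM on a log axis, for classes of at least 10 cells, with exact 95% Poisson intervals; open symbols had no UMI and are drawn at the CPM of 3 UMIs. Among these classes each gene with UMIs is highest in stromal cells, except Aspn in db/db 16w and HFD (mural cells, 897 and 526 CPM) and Vcan in db/db 8w (monocytes, 378 CPM).

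The genes with the most similar pattern were read over 23 classes (lineages and stromal subsets of at least 50 cells in each library) and 10418 genes, as Pearson correlations of log2(CPM + 10). The classes share libraries, depth and free RNA, and the values are descriptions. Dcn was followed most closely by Dpt (0.992), Serpinf1 (0.985) and Serping1 (0.981), and Ogn by Dpt (0.986), P3h3 (0.985) and Ndn (0.984). Lum was closest to the collagen genes Col6a2 (0.978), Col6a1 (0.977) and Col5a2 (0.976), and Aspn to the elastic-fibre genes Mfap5 (0.981) and Loxl1 (0.980) and to Fat1 (0.976). Among the genes nearest to Bgn were Olfml3 (0.958) and the collagen cross-linking enzyme gene Lox (0.945). Prelp was closest to Fkbp9 (0.974), Ecm2 (0.967) and Fxyd1 (0.967), and F3 (0.961) and Cygb (0.959) were among those nearest to Podn. Vcan was closest to Nectin1 (0.951), Add3 (0.926) and Arhgef25 (0.924), and Fmod, present mainly in HFD, to Frem1 (0.934), Npy1r (0.923) and Lypd1 (0.916). The HFD monocytes (64 cells) were the only monocyte class among those correlated.

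Genes that build, cut or bind these proteoglycans were read in stromal cells from lists, with the same floor and beside the same backgrounds (7.37%, 28.5% and 18.7% of genes past 2-fold, and median log2 ratios of 0.03, 0.01 and 0.10). Of 27 genes of chondroitin and dermatan sulfate assembly, 15, 15 and 16 could be read, of which 0, 2 and 3 were higher and 1, 4 and 4 lower by 2-fold, at a median of -0.15, -0.39 and 0.02. Ust, the uronyl 2-O-sulfotransferase of these chains, was lower in all 3 libraries, at 72.0 CPM in WT against 32.3, 12.3 and 22.3 CPM. Of 6 versican-cleaving ADAMTS genes, 4, 4 and 5 were read, with 1, 1 and 2 higher and 0, 2 and 0 lower, at a median of 0.04, -1.27 and 0.65. The proteases Adamts15 (11.6, 36.4, 55.3 and 37.4 CPM in library order) and Adamts9 (1.30, 6.01, 4.31 and 31.8 CPM) were higher than WT throughout, although Adamts9 reached the floor through HFD alone. Both were under the floor in WT, so that the floor let them be read only as higher. Of 9 versican partners 7 were read, with 2, 1 and 2 higher and 1, 4 and 2 lower, at a median of -0.33, -2.07 and -0.66. Tnc (tenascin-C), an adhesion-modulating matrix protein, was at 0.579, 21.6, 161 and 58.0 CPM. It was under the floor in WT and could likewise be read only as higher. Has1, a hyaluronan synthase that also served to gate a subset, was at 280, 114, 7.32 and 97.6 CPM.

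Among 8 receptors for soluble SLRPs 5 were read, with 0 higher in each comparison with WT and 1, 4 and 4 lower, at a median of -0.66, -1.85 and -1.32. Egfr, a receptor that decorin binds, was at 614, 299, 171 and 246 CPM. Among 22 other proteoglycan cores 12 were read, with 6, 5 and 4 higher and 1, 2 and 3 lower, at a median of 0.91, 0.42 and 0.24. The heparan sulfate proteoglycans Sdc1, Sdc3 and Col18a1 were higher in all 3 libraries of obese mice. Sdc1 was at 1.97, 25.7, 45.0 and 45.7 CPM, Sdc3 at 8.05, 21.3, 26.3 and 31.0 CPM, and Col18a1 at 30.5, 173, 498 and 212 CPM. Of these, Sdc1 and Sdc3 were under the floor in WT and could be read only as higher, as could Srgn. Srgn, the serglycin of blood cell granules, was at 15, 79.7, 53.0 and 90.2 CPM, beside summed macrophage markers in the stromal gate (6 of 6 detected) of 109, 338, 176 and 474 CPM, and their part in the Srgn level was not tested. Tgfbr3 (betaglycan) was lower in all 3, at 721, 318, 194 and 198 CPM. Of 9 other SLRP genes 2 were read: Omd, the neighbour of Aspn and Ogn, at 47.0, 24, 3.88 and 17.4 CPM, and Ecm2 at 89.0, 101, 131 and 175 CPM. None of the 7 hyalectan and link protein genes reached 20 CPM.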

How the data were processed

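Per gene and cell barcode, the authors deposited UMI counts, made from 10x Genomics libraries with Cell Ranger on mm10 (version 6.0.0 in the file headers, 7.1.0 in the submitters' processing notes). The deposited tables held called barcodes before the authors' quality filters. The limits on cells, all exclusive, were 250 to 6000 genes detected, 500 to 30000 UMIs and a mitochondrial share of 15%. A cell took the lineage with the most marker UMIs (at least 3 UMIs over 2 genes, and 3 times the next list), and cells that missed the ratio (340, 1344, 405 and 1002 in library order) were called mixed and left out, with no doublet caller run. A stromal cell took a subset with at least 3 UMIs over 2 genes and more UMIs than the other subset lists together. No member served in a gate. UMIs were summed over the cells of a class and library and given as CPM with exact Poisson intervals, ratios with exact conditional binomial intervals, and shares with Clopper-Pearson intervals, all at 95%. No test was run, as each group had 1 library. A gene was counted past 2-fold (log2 ratio of 1) if it had at least 20 CPM in either library. Thinning to 1000 UMIs was random with a fixed seed. Shares of 0 were given the limit of 3 counts.

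All 9 members were named, genes of the lists if past 2-fold 1 way in all 3 comparisons with WT, and the 3 most correlated genes that were in no gate, some of which are not reported here. The members, lists and markers were chosen with earlier results of these data known. Coordinates are those of GENCODE M21 on GRCm38, which held 99.6% of the 32285 gene IDs. The depth was 28504069 to 61828295 UMIs per library. Python 3.11.15, numpy 2.4.6, scipy 1.17.1 and pandas 2.3.3 were used, and ratios and intervals were tested on simulated counts. The alternatives are given under the dependence on processing. The study's bulk RNA-seq and proteomics were not used here.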

Additional observations from a re-analysis of the deposited data

How the results depend on the processing

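The 4 counts of members past 2-fold were recomputed under 11 alternatives and under 2 added after seeing the data (Col15a1 Col4a1 cells only, and mixed cells with most UMIs in the stromal list added). The Col15a1 Col4a1 cells and the subset shares here came from gates that exclude each other. In HFD against WT the count stayed between 3 and 4 under each of the 13, and Bgn, Lum and Fmod were in it each time. In db/db 16w against WT it went from 3 to 5 with the subset shares of WT, and otherwise stayed at 3 or 4, without Ogn as a mean over cells, in cells of 2000 to 6000 UMIs and in Col15a1 Col4a1 cells. In db/db 8w against WT it went from 1 to 2 in stromal cells of 2000 to 6000 UMIs and to 3 with the subset shares of WT, and in Col15a1 Col4a1 cells only the 1 member was Aspn in place of Bgn. Between the db/db ages it was 1 (Vcan); it was 2 without mitochondrial, ribosomal and gate genes, with scaling by the median ratio, in cells of 2000 to 6000 UMIs, with free RNA subtracted, with a background from 5 CPM and with the mixed cells added, 3 with the mean over cells, and 0 in Col15a1 Col4a1 cells only; without quality limits and with the subset shares of WT it stayed 1, but the member was Bgn and Podn. The cause of these changes was not tested. No member past 2-fold in a main comparison changed direction under any alternative; among the others, the lower Dcn level against WT was gone in cells of 2000 to 6000 UMIs (log2 ratios of 0.06, 0.00 and 0.25), Ogn in HFD ran from -0.37 to 0.66, Podn in db/db 8w ran from -0.66 to 0.63 on the log2 scale and Vcan in db/db 16w against WT from -0.70 to 0.73. Of the 36 pairs of member and library, 23 were higher in Col15a1 Col4a1 than in Pi16 Dpp4 cells, and 22 with overlapping gates, which shrank the Bgn ratio in HFD from 18.1-fold to 1.41-fold; by thinned shares 22 were, and 21 at 2000 UMIs. No paired analysis was possible because each group has 1 library. Depth limits Fmod in WT (2 UMIs), the Pi16 Dpp4 cells of db/db 16w (23 cells) and the monocyte and mural classes (at most 64 and 34 cells).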
